A study of Homo sapiens with 6 samples.

Results

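Translation initiation factor genes encode the proteins that bring the initiator tRNA, the small ribosomal subunit and a capped mRNA together and then let the large subunit join. The genes described here were taken by a rule on gene symbols. It kept symbols that begin with EIF1, EIF2, EIF3, EIF4, EIF5 or EIF6. The rule left out the EIF2AK kinases, the EIF4EBP inhibitors, antisense genes and pseudogenes. Of 59 symbols with such a beginning, 7 were EIF2AK or EIF4EBP genes, 3 were antisense genes and 1 was a pseudogene, which left 48 genes among the 25528 symbols of the expression table. Their levels were read in RNA-seq of DU145 cells, an established line of androgen-independent human prostate cancer cells.

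All 6 samples were DU145/tet-XISTshRNA cells, which carry a doxycycline-inducible vector that expresses a short hairpin RNA against XIST, the long non-coding RNA of X-chromosome inactivation. The vehicle group held 3 samples treated with 0.1% DMSO, and the DOX group held 3 samples treated with 500 ng/ml doxycycline (DOX) for 7 days. The comparison asks which initiation factor genes differ in RNA level when the hairpin is induced. The samples include no cells with a control hairpin, so an effect of DOX itself and an effect of the hairpin cannot be told apart. The labels do not say whether the 3 samples of a group were separate experiments. The p-values therefore measure only the spread between these samples, which limma pools in part or wholly across genes. As RNA was taken from whole cultures, fewer cells of a type and less RNA per cell cannot be told apart.

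XIST, the target of the hairpin, was listed at 0 TPM (transcripts per 1000000 transcripts) in all 6 samples, so silencing could not be checked from these values. The epithelial markers KRT8, KRT18, KRT19, EPCAM and CDH1 all had a mean over 1 TPM, with a summed level of 214 to 358 TPM. Of the luminal prostate markers given here, KLK3 was listed at 0 in all samples and KLK2 reached at most 0.0416 TPM. The lists of leukocyte, fibroblast and endothelial markers each summed to at most 1.00 TPM in any sample. Depth, as reads recovered from the files, ran from 5454302 (vehicle replicate 3) to 64571582 (DOX replicate 1). Abundant small RNAs (the 7SL, 7SK and RNase P RNAs) took from 67.5% of the TPM (vehicle replicate 3) to 82.6% (DOX replicate 1), and between 74.6% and 77.4% in the other samples. Because TPM always sums to 1000000, a larger share for these RNAs leaves a smaller share for every other gene, and levels are therefore also given after median-of-ratios scaling, in which the TPM of each sample is divided by its median ratio to the geometric mean of each gene over samples.

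Initiation begins when eIF2, bound to GTP and the initiator tRNA, joins the small ribosomal subunit together with eIF1, eIF1A, eIF3 and eIF5. The cap-binding protein eIF4E, the scaffold eIF4G and the helicase eIF4A load this complex on the mRNA, it scans to the start codon, and eIF5B then promotes joining of the large subunit. The exchange factor eIF2B recharges eIF2 with GTP, and phosphorylation of eIF2 at its alpha subunit under stress blocks that step. In cancer cells this machinery is known for its control through the mTOR pathway, which frees eIF4E from its binding proteins.

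Several of these factors are encoded by near-copies, and how far a short read can tell them apart is seen in their coding sequences. The following stretches of 90 coding bases each were taken from GENCODE release 44 on GRCh38 and are printed in the direction of the mRNA, with capitals at bases that differ within a set. EIF3C and EIF3CL encode the same subunit of eIF3, and their coding sequences were identical at all 2739 aligned bases. The stretches shown begin at the start codon, at chr16:28711687-28711776 on the plus strand for EIF3C and at chr16:28403529-28403618 on the minus strand for EIF3CL.
EIF3C: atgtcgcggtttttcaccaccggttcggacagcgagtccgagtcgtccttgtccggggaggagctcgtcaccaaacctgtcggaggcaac
EIF3CL: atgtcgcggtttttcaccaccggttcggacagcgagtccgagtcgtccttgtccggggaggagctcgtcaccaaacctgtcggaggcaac
No capital occurs in this pair. The coding sequence of EIF3CL is slightly longer, at 2742 bases. A coding read that does not reach the site of this difference cannot be assigned to either gene by its sequence.

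The eIF5A genes show 2 degrees of likeness. EIF5AL1, a gene copy with its whole coding sequence in 1 exon, matched EIF5A at 98.9% of 462 coding bases, whereas EIF5A2 matched it at 71.9% of 459. The stretches begin at the start codon and lie at chr17:7309636-7309725 (plus strand) for EIF5A, chr10:79512650-79512739 (plus strand) for EIF5AL1 and chr3:170907717-170907806 (minus strand) for EIF5A2, and capitals mark bases that differ from EIF5A.
EIF5A: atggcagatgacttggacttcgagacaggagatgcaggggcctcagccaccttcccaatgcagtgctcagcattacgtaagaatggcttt
EIF5AL1: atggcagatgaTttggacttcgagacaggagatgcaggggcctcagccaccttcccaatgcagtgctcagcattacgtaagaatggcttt
EIF5A2: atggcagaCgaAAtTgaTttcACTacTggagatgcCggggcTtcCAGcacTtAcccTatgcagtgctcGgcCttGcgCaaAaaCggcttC
In these 90 bases EIF5AL1 differed from EIF5A at 1 base and EIF5A2 at 24. Reads of EIF5A2 are thus far easier to place than those of EIF5AL1.

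EIF1AX and EIF1AY, the X-linked and Y-linked genes for eIF1A, matched at 92.1% of 432 coding bases, and the helicase genes EIF4A1 and EIF4A2 at 77.3% of 1214 aligned bases. The stretches lie at chrX:20135752-20135841 (minus strand) for EIF1AX and chrY:20582590-20582679 (plus strand) for EIF1AY, and at chr17:7574546-7574635 (plus strand) for EIF4A1 and chr3:186784564-186784653 (plus strand) for EIF4A2. Capitals mark the bases that differ within each pair.
EIF1AX: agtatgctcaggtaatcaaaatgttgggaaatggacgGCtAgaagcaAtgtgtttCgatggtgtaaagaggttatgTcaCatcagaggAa
EIF1AY: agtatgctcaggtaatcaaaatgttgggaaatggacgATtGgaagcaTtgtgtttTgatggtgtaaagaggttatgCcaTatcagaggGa
EIF4A1: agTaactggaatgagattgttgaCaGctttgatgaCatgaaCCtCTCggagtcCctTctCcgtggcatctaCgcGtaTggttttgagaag
EIF4A2: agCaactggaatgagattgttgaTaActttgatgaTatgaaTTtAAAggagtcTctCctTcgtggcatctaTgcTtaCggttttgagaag
The EIF1A pair differed at 8 of these bases and the EIF4A pair at 15. EIF4A1 is therefore well separated from EIF4A2 by sequence.

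EIF4A1, the main helicase of cap-dependent initiation, was listed at 0 TPM in all 6 samples. Its sequence is shared with annotated transcripts other than EIF4A2: all (100%) of its 50-base windows also occur in another gene of GENCODE release 44, 91.7% of them in ENSG00000264772 and 83.0% in SENP3-EIF4A1. SENP3-EIF4A1 is a readthrough gene, a transcription unit that runs from SENP3 into EIF4A1, and 83.4% of the 1758 bases of the EIF4A1 reference transcript lie inside its exons. The readthrough gene had between 0.0304 and 0.101 TPM. How reads that fit more than 1 gene were counted is not given in the sources used here, and the part of this sharing in the value of 0 was not tested.

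EIF3CL was also listed at 0 in all 6 samples, with 98.7% of its windows shared with EIF3C. EIF3C had 0.0182, 0.00551 and 0.0259 TPM with vehicle and 0.0283, 0.0514 and 0.0258 TPM with DOX, which rest on 3, 1 and 1 recovered reads and on 28, 10 and 5. The difference between the groups gave an exact two-sided permutation p = 0.2, where the smallest p that 3 samples against 3 can give is 0.1. EIF4E1B, a form of eIF4E known from oocytes, shares none of its windows and had 0.0726, 0 and 0 TPM with vehicle and 0.00805, 0 and 0 TPM with DOX, from 3 and 2 reads. EIF4A1, EIF3CL, EIF3C and EIF4E1B, 4 genes in all, had a mean under 1 TPM and were left out of the test across genes. Among the other members, EIF3L shared 56.6% of its windows, EIF5A 38.7% and EIF4B 33.0%, and 18 of the 48 genes shared none, with a median of 1.23%.

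**Figure D1:**
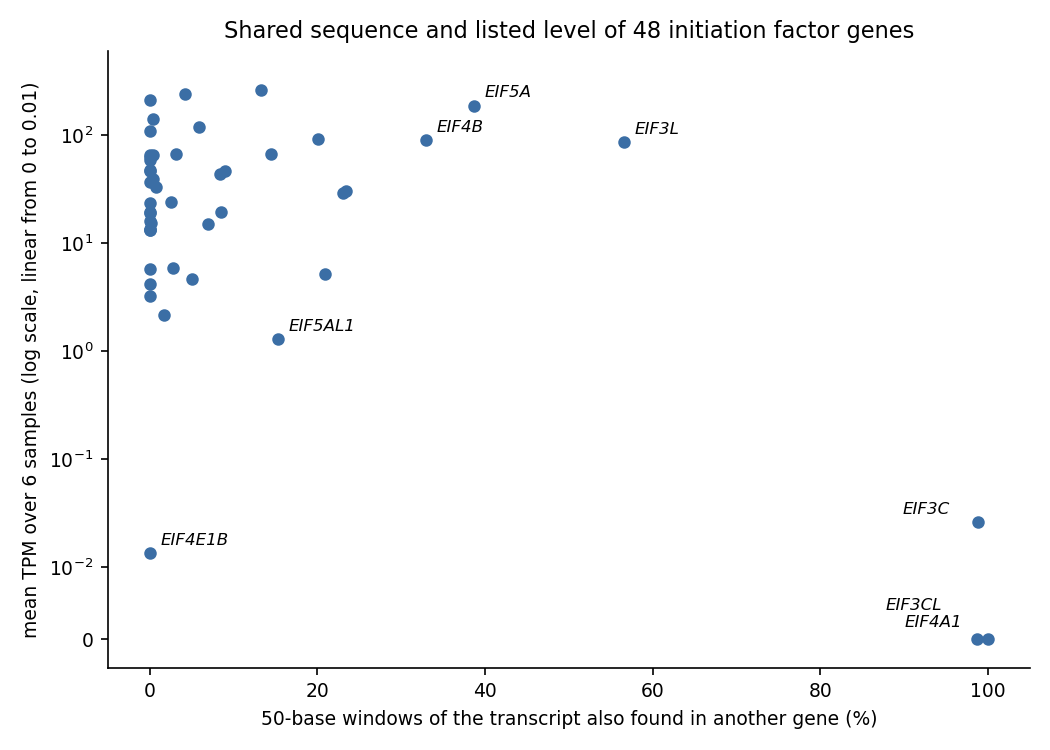
Each point is 1 of the 48 initiation factor genes, with the share (%) of the 50-base windows of its reference transcript that also occur in another annotated gene on the x axis and its mean TPM over 6 samples on a log y axis that is linear near 0. EIF4A1, EIF3C and EIF3CL lie at 98.7% to 100% shared windows and near 0 TPM, EIF4E1B lies near 0 TPM with no shared window, and EIF3L at 56.6% lies among the expressed genes.

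The 44 genes with a mean of at least 1 TPM spanned from 1.28 to 262 TPM. The highest were EIF3E and EIF3H of eIF3, EIF1, which guards start codon selection, EIF4G2, an eIF4G relative without the eIF4E-binding site, and EIF5A, a hypusine-carrying factor that acts mainly in elongation. EIF3E had 207, 253 and 414 TPM with vehicle and 148, 278 and 269 TPM with DOX. EIF1 had 228, 262 and 325 TPM with vehicle and 173, 203 and 230 TPM with DOX. In both genes vehicle replicate 3 was the highest sample and DOX replicate 1 the lowest, and the groups overlapped.

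EIF4G2 had 196, 218 and 297 TPM with vehicle and 129, 227 and 186 TPM with DOX. EIF5A had 195, 170 and 172 TPM with vehicle and 159, 238 and 182 TPM with DOX. EIF3H had 136, 159 and 165 TPM with vehicle and 96.5, 145 and 135 TPM with DOX. Within each of these 3 genes the samples of the groups overlapped, and EIF3H was the lowest of the 5 genes in every sample. EIF3E exceeded EIF4G2 in all 6 samples, whereas the order of the other pairs among EIF3E, EIF1, EIF4G2 and EIF5A changed from sample to sample.

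At the low end stood EIF5AL1, EIF5A2 and EIF2B3, the gene for the gamma subunit of eIF2B. EIF2B3 had 3.46, 2.71 and 3.87 TPM with vehicle and 2.19, 4.12 and 3.17 TPM with DOX. EIF5A2 had 2.02, 2.52 and 3.54 TPM with vehicle and 0.816, 2.37 and 1.77 TPM with DOX. Reads for these genes were few in the shallowest sample: vehicle replicate 3 held 42 reads of EIF2B3, 107 of EIF5A2 and 19 of EIF5AL1.

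TPM was highest in vehicle replicate 3 for 36 of the 44 genes and lowest in DOX replicate 1 for 40 of them. Over all genes tested these shares were 78.4% and 74.3%. Vehicle replicate 3 is the sample with the smallest share of small RNAs and DOX replicate 1 the sample with the largest, and the part of this in each difference was not tested. After median-of-ratios scaling, vehicle replicate 3 was the highest sample for 4 genes and DOX replicate 1 the lowest for 16 and the highest for 12. Summed over all members, the initiation factor genes held 0.983% to 1.09% of the TPM left after the small RNAs were taken out.

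**Figure D2:**
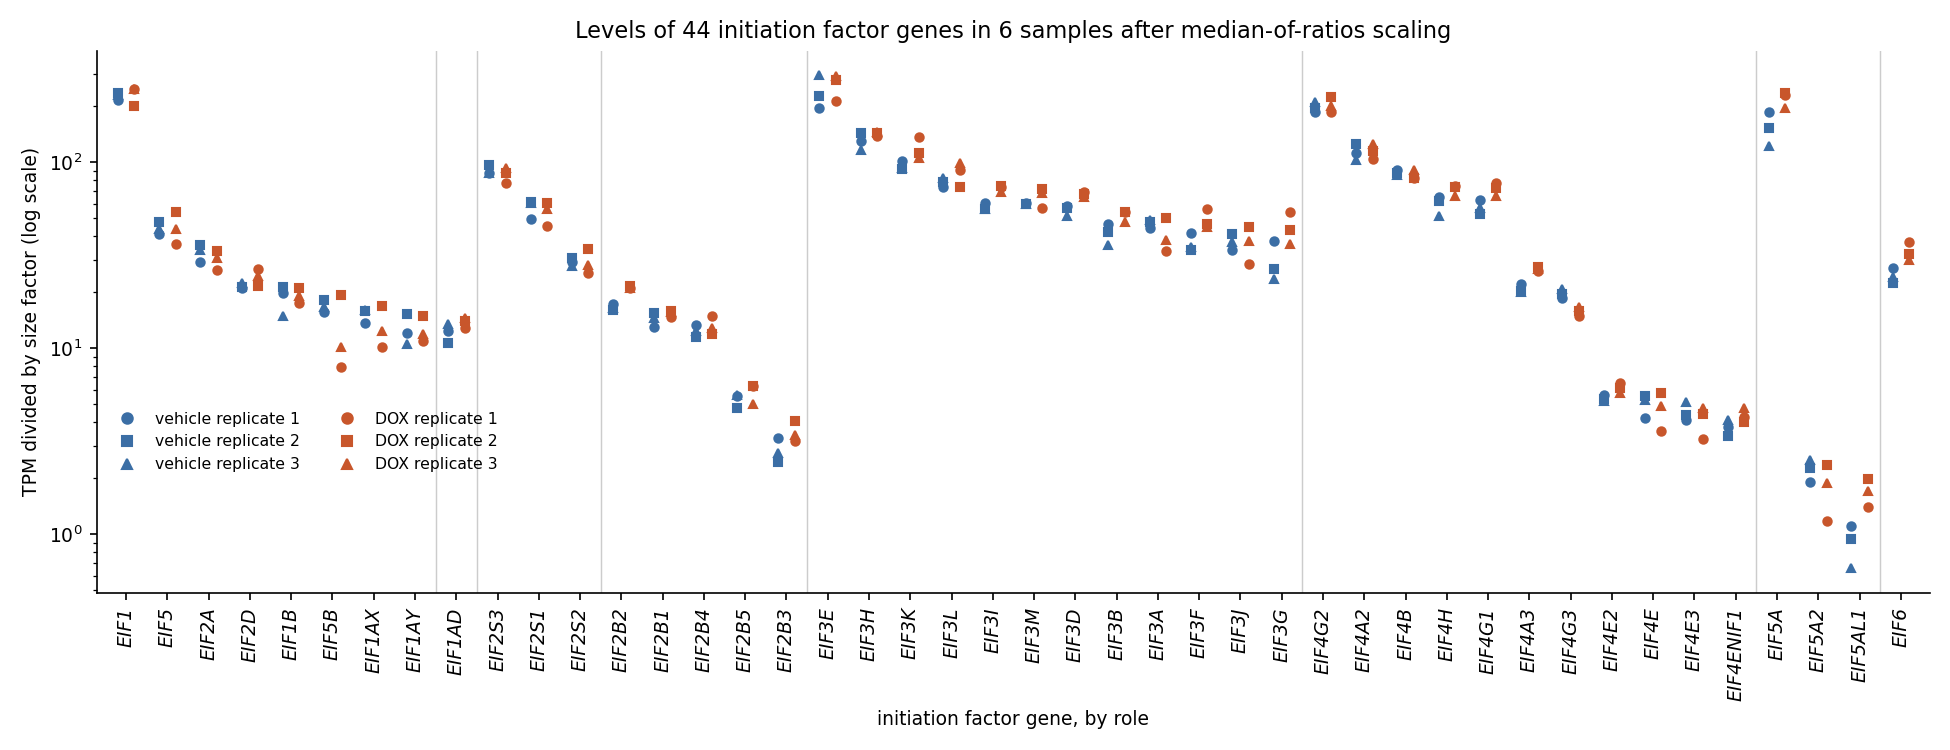
Levels of the 44 tested genes, grouped by role, as TPM divided by the sample's median-of-ratios size factor (log y axis); each point is 1 sample, with colour for the group and shape for the replicate number. Most genes have overlapping groups, and EIF3E, EIF1, EIF4G2 and EIF5A stand highest, while EIF5AL1 and EIF5A2 stand lowest.

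Subunits of a complex had unlike RNA levels. Among the 12 tested subunits of eIF3, the highest, EIF3E, exceeded the lowest by 5.85-fold to 12.5-fold within a sample, and the lowest was EIF3G in 4 samples and EIF3J in the other two. In eIF2, EIF2S3 (gamma subunit) was the highest and EIF2S2 (beta subunit) the lowest in every sample, 2.56-fold to 3.33-fold apart. In eIF2B, EIF2B2 was highest and EIF2B3 lowest in every sample, 5.26-fold to 6.69-fold apart. These TPM values depend on the length that each gene was divided by. The length implied by the authors' values was 5.12 times the reference transcript for EIF4E and 4.36 times for EIF4E2, but 0.15 times for EIF3F, 0.26 times for EIF3H, 0.30 times for EIF3M and 0.31 times for EIF2B2. EIF4E, the cap-binding protein, thus stood at 2.50 to 7.45 TPM while 67.4 to 105 of every 1000000 recovered reads fell on it, and its low place among the factors rests on that length.

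No initiation factor gene passed the test of DOX-treated against vehicle-treated cells that was applied to all 11672 genes with a mean of at least 1 TPM. limma on log2(TPM + 1), with Benjamini-Hochberg adjustment, called 0 of the 44 genes lower and 0 higher at an adjusted p under 0.05 and a fold change over 1.5, against 2.98% of all genes lower and 0.0257% higher. At an unadjusted p under 0.05 and the same fold change, EIF5B, EIF4G3, EIF3A and EIF1AX were lower, 4 of 44 against 19.0% of all genes, and 0 were higher (0.120% of all genes). The log2 fold change was below 0 for 41 of the 44 genes and for 10867 of all 11672. The median was -0.32 for the members and -0.35 over all genes tested. Without DOX replicate 1 the members' median was -0.15 (all-gene median -0.22), with 34 members and 10313 of all 11801 genes below 0. Without vehicle replicate 3 the members' median was -0.19 (all-gene median -0.24), with 34 members and 10042 of all 11517 genes below 0. Blocked by replicate number, limma called these 4 genes lower, against 19.0% of all genes, and 0 higher, against 0.129%. In that blocked fit the variance was pooled across genes of like level, with an SE of 0.202 for both EIF3A and EIF3B. Its p-values thus do not measure the spread of each single gene. With only genes of a mean of at least 5 TPM tested, EIF5B was called lower (1 gene, against 8.80% of all genes) and 0 genes higher (0.0556%). Without DOX replicate 2, EIF5B, EIF4G3, EIF5A2, EIF3A and EIF1AX were called lower, 5 genes against 20.3% of all genes and 0 higher against 0.0940%. Without vehicle replicate 1, EIF5B alone was called lower (1 gene against 10.7% of all genes) and 0 were higher (0.198%). As TPM, the DOX samples were all below the vehicle samples in 5 members (30.7% of all genes) and above them in 0 (0.223%).

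After median-of-ratios scaling, which brought the median of all genes to 0.02, limma called 0 of the 44 genes lower and 0 higher, against 0% of all genes in either direction. The members' median log2 fold change was 0.12, with 29 genes above 0 and 15 below, against 5466 of all 11595 genes below 0. The direction of 26 members depended on the scaling. Only EIF3G was higher at an unadjusted p under 0.05 with the fold change (1 gene, against 1.18% of all genes), and 0 were lower against 1.15%. With no minimum on the fold change, 11 genes were higher and EIF4G3 was lower at an unadjusted p under 0.05, against 8.12% and 7.75% of all genes. All DOX samples lay above all vehicle samples in 13 genes (10.9% of all genes) and below them in 1 gene, EIF4G3 (9.15% of all genes). When reads recovered from TPM were tested with voom and the replicate block, EIF3G and EIF5AL1 were called higher, 2 genes against 1.38% of all genes, and 0 were called lower against 2.34%. Without the block voom called 0 members higher (0% of all genes) and 0 lower (0.00857%).

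**Figure D3:**
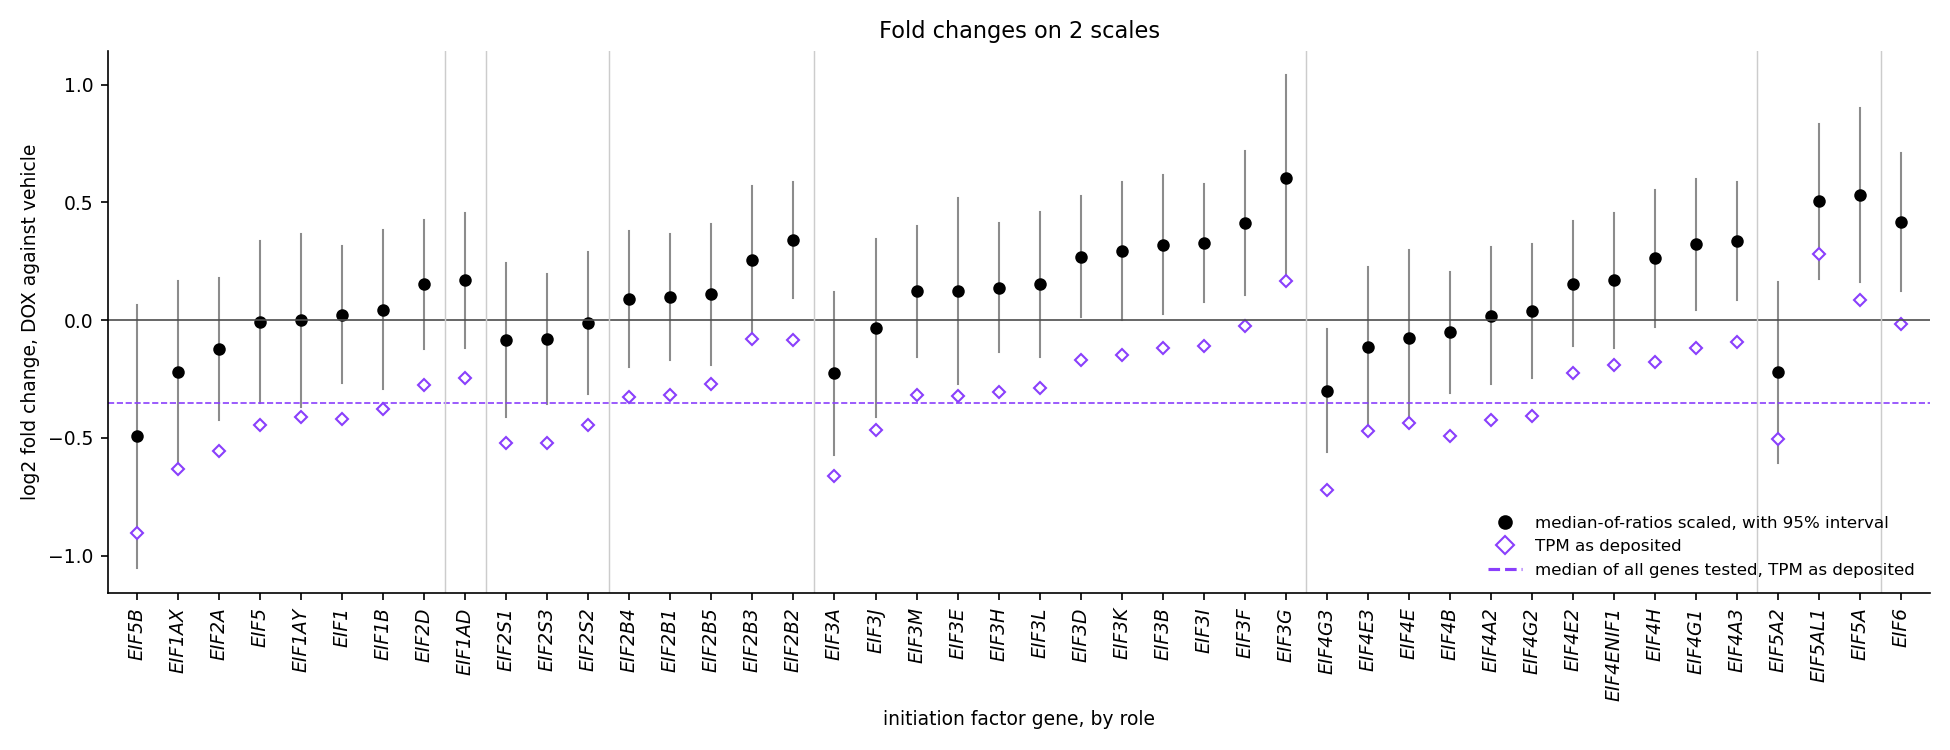
The log2 fold change of DOX against vehicle for the 44 tested genes, by role, after median-of-ratios scaling (black points, with 95% intervals from limma) and for TPM as deposited (open diamonds). The diamonds lie around the dashed line at -0.35, the median of all genes on the TPM scale, and the black points lie higher in every gene, from -0.49 for EIF5B to 0.60 for EIF3G.

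Of the factors that act at the start codon, EIF5B, the GTPase of subunit joining, had the largest difference. It had 16.5, 20.3 and 23.5 TPM with vehicle and 5.54, 19.4 and 9.51 TPM with DOX. DOX replicates 1 and 3 lay below every vehicle sample, and DOX replicate 2 lay within their range. limma gave a log2 fold change of -0.90 ± 0.29 (SE) with an adjusted p = 0.0629, and an adjusted p = 0.000242 with the replicate block. The blocked value rests on a variance pooled across genes, not on the spread of EIF5B. After scaling it was -0.49, with a 95% interval of -1.05 to 0.06 (adjusted p = 0.344 from limma).

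EIF1AX had 14.4, 17.6 and 22.7 TPM with vehicle and 7.04, 17.0 and 11.6 TPM with DOX. Here too DOX replicates 1 and 3 lay below every vehicle sample and DOX replicate 2 lay among them. After scaling, its log2 fold change was -0.22 (95% interval -0.61 to 0.17, adjusted p = 0.514 from limma). EIF1AY, its Y-linked counterpart, had 12.7, 16.9 and 14.8 TPM with vehicle and 7.57, 15.0 and 11.1 TPM with DOX, and a scaled log2 fold change of -0.00 (95% interval -0.37 to 0.37). EIF1AY thus held 39.5% to 51.8% of the summed TPM of this pair. EIF1B, a close relative of EIF1, had 21.0, 23.8 and 21.1 TPM with vehicle and 12.2, 21.2 and 17.7 TPM with DOX, and EIF1 held at least 90.5% of the summed TPM of these genes. The 8 start codon genes, which also include EIF5, the GTPase-activating protein of eIF2, and the alternative initiator tRNA carriers EIF2A and EIF2D, had a scaled median of -0.00, and none of the 8 had groups that did not overlap on either scale.

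The eIF2 and eIF2B genes lay on opposite sides of 0 after scaling. All 3 genes of eIF2 had small negative log2 fold changes between -0.08 and -0.01, and each interval included 0. EIF2S3 had 92.3, 108 and 123 TPM with vehicle and 53.8, 87.7 and 86.5 TPM with DOX. Its DOX samples all lay below its vehicle samples as TPM but not after scaling. All 5 genes of eIF2B had scaled log2 fold changes above 0, from 0.09 to 0.34, with a median of 0.11. EIF2B2 was the highest of them and the only one whose scaled groups did not overlap, with 17.3, 16.0 and 16.5 against 21.2, 21.5 and 21.2 scaled TPM (95% interval of the log2 fold change 0.09 to 0.59, adjusted p = 0.281 from limma). The median GC content was 41.0% for the eIF2 genes and 47.8% for the eIF2B genes. With GC content and length corrected in voom with the block, the eIF2 genes had 0.16 (EIF2S1), 0.03 (EIF2S2) and 0.08 (EIF2S3), all above 0, and EIF2B4 had -0.10, so the 2 sets no longer lay on opposite sides. Whether eIF2 and eIF2B differed from each other was not tested.

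Of the 12 tested eIF3 genes, 10 had scaled log2 fold changes above 0, with a median of 0.21. EIF3G, a subunit with an RNA recognition motif, had 38.0, 26.7 and 23.5 scaled TPM with vehicle and 54.4, 43.5 and 36.6 with DOX. DOX replicate 3 was lower than vehicle replicate 1, so the groups overlapped. limma gave EIF3G a scaled log2 fold change of 0.60 ± 0.20 (SE, adjusted p = 0.281), and voom with the replicate block gave an adjusted p of 0.0129. EIF3G has the highest GC content of the tested members (60.2%), and with GC content and length also corrected voom gave 0.27 (adjusted p = 0.287), so that the call was lost. As TPM, the difference was 0.17 (limma, adjusted p = 0.653).

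EIF3F had 41.4, 33.6 and 35.2 scaled TPM with vehicle and 56.1, 46.9 and 44.7 with DOX. All its DOX samples lay above its vehicle samples after scaling, as did those of EIF3B, EIF3D, EIF3I and EIF3K. The scaled log2 fold change of EIF3F was 0.41 (95% interval 0.11 to 0.72, adjusted p = 0.281 from limma), and on the TPM scale it was -0.03. EIF3F was called higher by voom with the block after GC content and length were corrected (adjusted p = 0.0443), the 1 gene so called (0.00922% of all genes), with 0 members lower (0.0276% of all genes). Without that correction voom with the block gave 0.42, a fold change under 1.5. The correction used the GC content of the reference transcript (40.0%), while the coding sequence of EIF3F has 56.5% GC, and a correction by the latter value was not run. EIF3A, the large scaffold subunit, went the other way, with 46.9, 52.8 and 68.8 TPM with vehicle and 23.1, 50.7 and 35.5 TPM with DOX. Its scaled log2 fold change was -0.23 (95% interval -0.57 to 0.12, adjusted p = 0.460 from limma). EIF3J, a loosely bound subunit, was the other one below 0, at -0.03.

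Among the genes of cap binding and unwinding, the 3 eIF4G genes lay on both sides of 0 after scaling. EIF4G3, a second scaffold besides EIF4G1, had 19.6, 21.6 and 29.3 TPM with vehicle and 10.3, 15.9 and 15.5 TPM with DOX. Its DOX samples lay below its vehicle samples on both scales. The scaled log2 fold change was -0.30 (95% interval -0.56 to -0.04, adjusted p = 0.283 from limma). As TPM the difference was -0.72 (limma, adjusted p = 0.0850, and 0.00329 with the replicate block, whose variance was pooled across genes).

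EIF4G1 had 62.5, 52.6 and 56.9 scaled TPM with vehicle and 77.3, 72.5 and 65.7 with DOX, with no overlap. Its scaled log2 fold change was 0.32 (95% interval 0.04 to 0.60, adjusted p = 0.283 from limma), while on the TPM scale it was -0.12. EIF4G2 lay between, at 0.04 (95% interval -0.25 to 0.32). Of the helicase genes, EIF4A2 had 118, 139 and 146 TPM with vehicle and 72.4, 116 and 117 TPM with DOX, and a scaled log2 fold change of 0.02 (95% interval -0.27 to 0.31). EIF4A3, the helicase of the exon junction complex, had 22.3, 20.3 and 20.2 scaled TPM with vehicle and 26.1, 27.2 and 26.7 with DOX. Its scaled groups did not overlap, with a log2 difference of 0.34 (limma, adjusted p = 0.281).

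No cap-binding gene had a scaled interval that left out 0. EIF4E had 4.44, 6.14 and 7.45 TPM with vehicle and 2.50, 5.78 and 4.57 TPM with DOX. EIF4E2, a cap-binding protein known as a repressor, had 5.90, 5.93 and 7.36 TPM with vehicle and 4.52, 6.18 and 5.32 TPM with DOX. EIF4E3, a further form, had 4.32, 4.87 and 7.23 TPM with vehicle and 2.26, 4.48 and 4.43 TPM with DOX. Their scaled log2 fold changes were -0.08, 0.16 and -0.11, and the groups did not overlap on that scale for EIF4E2, higher with DOX. EIF4B and EIF4H, which stimulate the helicase, had -0.05 and 0.26, and EIF4ENIF1, which carries eIF4E into the nucleus, had 0.17.

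The eIF5A genes and EIF6 gave 3 of the 5 highest scaled values. EIF5A had 186, 153 and 122 scaled TPM with vehicle and 229, 236 and 195 with DOX. EIF5AL1 had 1.11, 0.940 and 0.659 scaled TPM with vehicle and 1.41, 1.98 and 1.71 with DOX. In both genes all DOX samples lay above all vehicle samples, and EIF5AL1 shares 11.6% of its windows with EIF5A. Their scaled log2 fold changes were 0.53 (95% interval 0.16 to 0.90, adjusted p = 0.280 from limma) and 0.50 (95% interval 0.18 to 0.83, adjusted p = 0.280 from limma). For EIF5AL1, voom with the block gave 0.78 (adjusted p = 0.0463), and the pseudocount of 1 TPM in the limma fit understates the fold of a gene at this level.

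EIF5A2, the paralogue of EIF5A found amplified in some tumours, had 1.92, 2.27 and 2.51 scaled TPM with vehicle and 1.17, 2.35 and 1.90 with DOX. These groups overlapped, and the scaled log2 fold change was -0.22 (95% interval -0.61 to 0.16). EIF6, which keeps the large subunit from joining too early, had 24.5 ± 2.30 scaled TPM with vehicle and 33.1 ± 3.69 with DOX (SD, n = 3 each). Its groups did not overlap, and its log2 fold change was 0.42 (95% interval 0.12 to 0.71, adjusted p = 0.280 from limma) after scaling and -0.02 on the TPM scale. EIF1AD, which encodes a protein with an eIF1A-like domain, had a scaled log2 fold change of 0.17 with overlapping groups.

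GC content moved with these differences. Across the 44 genes, the scaled log2 fold change and the GC content of the reference transcript had a Spearman rho of 0.69, and across 10788 genes tested with a reference transcript the rho was also 0.69. These are descriptions across genes of the same 6 libraries, which are not independent replicates. The 22 genes with the lower GC content (33.9% to 44.8%) had a median log2 fold change of -0.02, with 8 above 0. The 22 with the higher GC content (45.6% to 60.2%) had a median of 0.27, with 21 above 0 and only EIF4G3 below. EIF3F, at 40.0% in its long reference transcript, has a coding sequence of 56.5% GC and an implied length of 0.15 times that transcript, and over coding sequences the rho was 0.70. With transcript length the rho was -0.42 among the members and -0.41 among all genes.

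The relation to GC content also differed between samples of the same group. Each member's deviation from its mean over the samples had a rho with GC content of 0.23, -0.72 and -0.54 in vehicle replicates 1, 2 and 3, and of 0.84, -0.10 and 0.16 in DOX replicates 1, 2 and 3. DOX replicate 1, with the deepest library, thus stood highest. After GC content and length were corrected in each sample, the rho among the members was -0.13, a low value that the correction itself brings about. These corrected values were of TPM without median-of-ratios scaling, and the shift shared by most genes stayed in them. Their median log2 fold change over all genes was -0.36, with 10669 of 10850 genes below 0. When limma was run on these corrected values with the replicate block, EIF4G3 and EIF5B were called lower, 2 genes against 9.34% of all genes, and 0 higher against 0.0276%. Without the block, limma called neither gene (adjusted p = 0.109 for EIF4G3 and 0.0992 for EIF5B). Neither gene was called by voom with the block and this correction (adjusted p = 0.258 for EIF4G3 and 0.490 for EIF5B). The part of GC content in the differences of single genes was not tested.

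**Figure D4:**
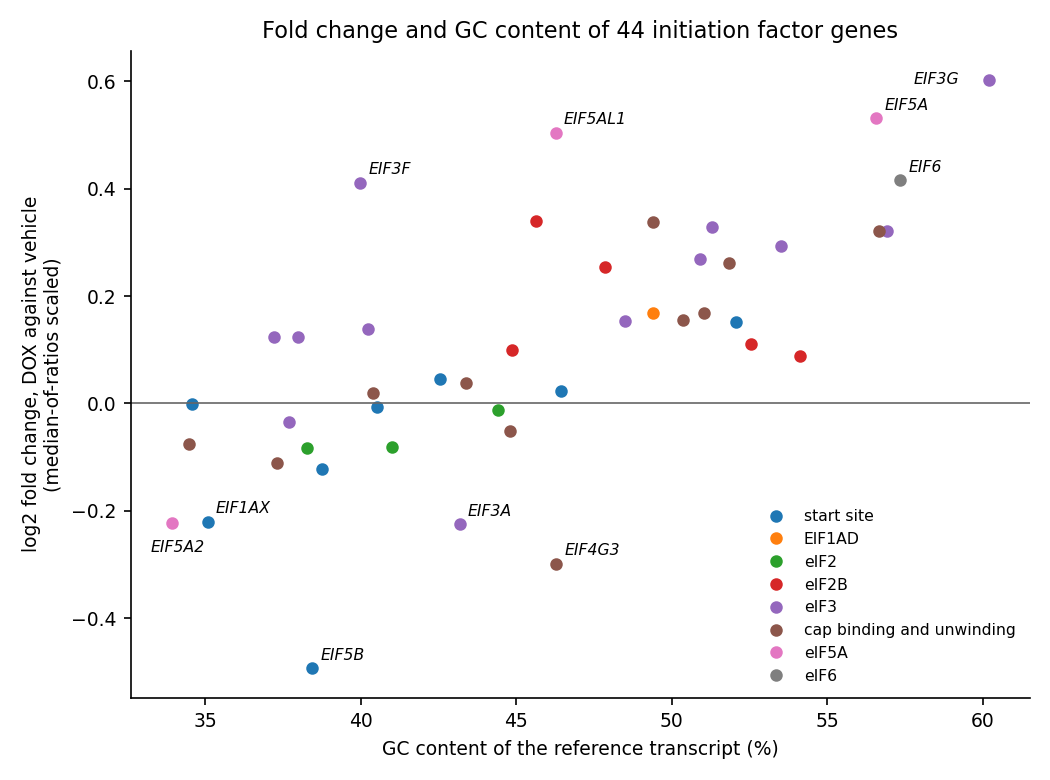
Each point is 1 of the 44 tested genes, coloured by role, with the GC content (%) of its reference transcript on the x axis and its log2 fold change of DOX against vehicle after median-of-ratios scaling on the y axis. Values go from -0.22 for EIF5A2 at 33.9% GC to 0.60 for EIF3G at 60.2% GC (Spearman rho 0.69), with EIF5B and EIF4G3 lying low for their GC content and EIF3F lying high.

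The ratio of a pair of paralogues within a sample does not depend on how the sample was scaled. Ratios were taken for 12 pairs after the data had been seen, and with 3 samples against 3 the smallest exact permutation p is 0.1, so none could pass. The groups did not overlap in 6 pairs, each with an exact two-sided p = 0.1 (0.2 after Benjamini-Hochberg adjustment over the 12 pairs). Pairs that share a gene are not independent, and within the EIF4E, EIF4G and EIF5A sets the last ratio follows from the others. No share over other pairs of genes was taken, so this count has no background to be read against. The ratio of EIF4G1 to EIF4G3 was 3.34, 2.70 and 2.74 with vehicle and 5.21, 4.60 and 3.93 with DOX, a log2 difference of 0.64. EIF4G2 to EIF4G3 was 9.98, 10.1 and 10.2 with vehicle and 12.5, 14.3 and 12.0 with DOX. EIF4G3 thus made up a smaller part of the summed eIF4G RNA in every DOX sample (5.03% to 5.92%) than in any vehicle sample (6.98% to 7.25%).

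EIF5A exceeded EIF5A2 by 96.7-fold, 67.4-fold and 48.6-fold with vehicle and by 195-fold, 100.3-fold and 103-fold with DOX, a log2 difference of 0.89. EIF5A2 exceeded EIF5AL1 by 1.72-fold, 2.42-fold and 3.81-fold with vehicle and stood at 0.836, 1.19 and 1.11 times its level with DOX. This pair had the largest log2 difference, -1.28, although the reads behind EIF5AL1 numbered only 19 to 511. EIF5A to EIF5AL1 differed by -0.39 and EIF4A2 to EIF4A3 by -0.33 on the log2 scale. The groups overlapped for EIF1 to EIF1B, EIF1AX to EIF1AY, EIF4G1 to EIF4G2 and the pairs among EIF4E, EIF4E2 and EIF4E3. Taken within same-numbered samples, the EIF4G1 to EIF4G2 ratio was higher with DOX by 0.31, 0.27 and 0.28 on the log2 scale for replicates 1, 2 and 3. Of the 12 pairs, 10 had the same direction in all 3 replicate numbers, the exceptions being EIF1 to EIF1B and EIF1AX to EIF1AY. No test was made of this, and no share over other pairs of genes was taken.

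GC content differed within these pairs too. The ratio was higher with DOX for the gene of higher GC content in EIF4G1 (56.7%) to EIF4G3 (46.3%) and in EIF5A (56.6%) to EIF5A2 (33.9%). The same held for EIF4A3 (49.4%) relative to EIF4A2 (40.4%) and for EIF5AL1 (46.3%) relative to EIF5A2. In EIF4G2 (43.4%) to EIF4G3 and in EIF5A to EIF5AL1, the gene of lower GC content was relatively higher with DOX. Over coding sequences alone, EIF5A (51.7%) and EIF5AL1 (51.5%) were nearly alike in GC content. The part of GC content in these ratios was not tested. EIF4E (34.5%) and EIF4E2 (50.4%) also differed in GC content, and their groups overlapped.

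**Figure D5:**
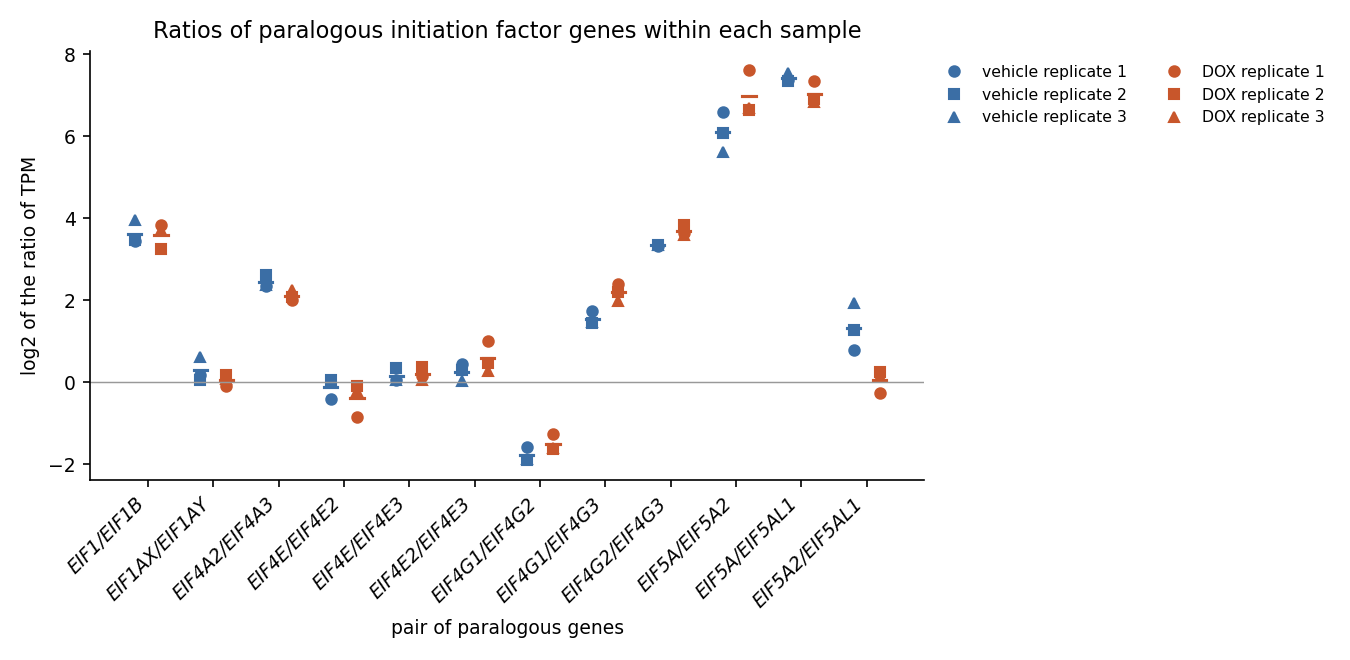
The log2 ratio of TPM for 12 pairs of paralogous initiation factor genes; each point is 1 sample, with colour for the group and shape for the replicate number, and bars give the group means. DOX samples lie above vehicle samples for EIF4G1/EIF4G3, EIF4G2/EIF4G3 and EIF5A/EIF5A2 and below them for EIF4A2/EIF4A3, EIF5A/EIF5AL1 and EIF5A2/EIF5AL1, and the groups overlap in the other pairs.

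The wider translation machinery was described by a list of 47 genes for regulators, cofactors, hypusination enzymes, mitochondrial initiation factors and factors of elongation and termination, of which 46 were tested and EIF4EBP3 was listed at 0. On the TPM scale limma called 1 of them lower and 0 higher, against the 2.98% and 0.0257% of all genes given above. This was RPS6KB1, the mTOR-activated S6 kinase, with 18.2, 24.5 and 30.1 TPM with vehicle and 7.90, 16.1 and 12.0 TPM with DOX. All its DOX samples lay below its vehicle samples, and limma gave a log2 difference of -0.98 ± 0.28 (SE, adjusted p = 0.0452) as TPM and of -0.56 (adjusted p = 0.280) after scaling. The replicate block raised the count to 5 of 46 genes, against 19.0% of all genes: RPS6KB1, PDCD4, DHX29, EIF2AK2 and HBS1L.

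After scaling, the lowest of the list were RPS6KB1, PDCD4, an inhibitor of eIF4A (-0.37), and EIF2AK2, the eIF2 kinase PKR (-0.32). The highest were RPS6KB2, a second S6 kinase (0.65), EIF4EBP1, an inhibitor of eIF4E (0.59), and EEF1G, a subunit of the elongation factor that recharges eEF1A (0.45). Each had an adjusted p between 0.280 and 0.314 from limma. RPS6KB2 had 7.48 ± 1.97 scaled TPM with vehicle and 12.2 ± 1.53 with DOX (SD, n = 3 each), with no overlap. All 8 elongation genes had scaled log2 fold changes above 0, with a median of 0.34 and a median GC content of 57.2%, whereas the 5 termination genes had a median of -0.08 at 42.1% GC.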

How the data were processed

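RNA-seq of 3 vehicle and 3 DOX samples was used, grouped by the sample labels. Libraries were made with a stranded mRNA kit. The authors aligned reads with STAR to GRCh38 and deposited TPM per gene symbol, the unit of all levels here; the tools' versions and the counting rule are not given in the sources used here. The authors also deposited a DESeq2 table with fold changes, p-values and mean normalized counts, a signal column from which only that mean was used; fold changes and p-values of that table were not used.

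Because the files hold no counts per sample, DOX was compared with vehicle by limma 3.58.1 (R 4.3.3) on log2(TPM + 1) with genes kept at a mean of 1 TPM or more, with a variance trend, Benjamini-Hochberg adjustment and a call at adjusted p under 0.05 and fold change over 1.5. The pseudocount of 1 understates changes of low genes. Reads per gene were recovered from TPM and the mean normalized counts: 98.8% of 21457 low values came out whole within 0.05 of a read, against 10% by chance. voom was run on these reads. On simulated data with 200 genes changed 2-fold in the DOX against vehicle comparison, limma recovered 178 with 14 false calls among 11630 genes. The simulated samples had a single spread setting for all genes and equal numbers of genes raised and lowered. They had no shift in the share of small RNAs and no GC trend of single samples. The recovery therefore does not give the power of the comparison reported here. Other steps used Python 3.11.15 with SciPy 1.17.1. GC content, lengths and sequences came from GENCODE release 44 on GRCh38, in which 87.2% of symbols were found.

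Same-numbered samples deviated together across genes (r = 0.57, 0.24 and 0.21 for replicates 1, 2 and 3), and the pairing rests on these correlations alone.

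The genes and lists were chosen with earlier results of these data known. Genes given with values were the 5 lowest and 5 highest scaled log2 fold changes, the 5 highest and 3 lowest levels, genes at 0, and named paralogues; EIF2B2 was added after its values were seen. Alternatives were other scalings, pseudocounts and filters, the block, GC and length correction, voom, and leaving out each sample. Some marker genes are not reported here.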

Additional observations from a re-analysis of the deposited data

How the results depend on the processing

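Initiation factor genes called lower numbered 0 in the fit reported, 1 with a minimum mean of 5 TPM, 4 with the replicate block, 2 with GC and length correction and the block, and 0 to 5 with each sample left out. Those called higher numbered 0, 2 with voom and the block and 1 with voom, the block and GC and length correction. The block changed no other call among the initiation factor genes. Other translation genes called lower numbered 1 in the fit reported, 0 with median-of-ratios scaling, small RNAs left out, a pseudocount of 0.1 or 0.5, no filter, GC and length correction, voom, or voom with the block and that correction, 2 with a minimum of 5 TPM, 5 with the block, 2 with GC and length correction and the block, and 0 to 7 with each sample left out; those called higher numbered 0, and 1 with voom and the block. The members' median minus that of all genes was 0.03, and moved to -0.11 with no filter and 0.12 with voom, the block and GC and length correction. Relative to all genes, 6 genes turned from below 0 to above it. With voom, the block and GC and length correction these were EIF1AX (0.081), EIF1AY (0.18), EIF4A2 (0.12), EIF4E (0.17), EIF4E3 (0.22) and EIF4G2 (0.13), and with GC and length correction, with or without the block, EIF1AX (0.0083) and EIF4E3 (0.24). The cause was not tested. Against the fit reported, the other 18 genes with full values changed sign, if at all, only between values within 1 SE of 0. Between alternatives the range could be wider. Relative to all genes, EIF3E ran from -0.12 to 0.32 and EIF3H from -0.10 to 0.31. Every gene with full values was refitted under the alternatives in which it was tested.

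With each sample left out after median-of-ratios scaling, an alternative chosen after seeing the data, 0 initiation factor genes were called. The counting depth of vehicle replicate 3 limits genes at low levels.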
